A study of Rattus norvegicus with 12 samples.

Results

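Chemokines, the small secreted proteins that draw white blood cells to a tissue, were followed in cultured cardiac fibroblasts depleted of Yap, Wwtr1 or both. The genes were chosen by name: Cxcl9, Cxcl10, Cxcl11, Cxcl1, Cxcl12, Cxcl16, Ccl2, Ccl5, Ccl7 and Cx3cl1. All 10 were among the 12271 genes with values, and 9 of them had a mean of at least 10 normalized counts over the 12 libraries and were tested. Cxcl9 fell under that limit with a mean of 9.67.

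RNA was sequenced from fibroblasts of the heart ventricles of Sprague Dawley rats, 2 days old, cultured in medium with 15% serum per the labels. Small interfering RNAs (siRNAs), which lower the messenger RNA they match, were transfected after 16 hours at 25 nM each, and RNA was collected 48 hours later. The 4 groups of 3 libraries received universal negative control siRNA (the controls, also called negative siRNA here), Yap siRNA, Wwtr1 siRNA, or siRNA against both genes (double knockdown). Every group was transfected, a pair of siRNAs was used for a target, and each replicate was a culture from separate litters according to the study's methods. The siRNA label of the double knockdown names the Wwtr1 siRNAs alone, and the methods give other culture times and another serum level than the labels, with a medium change after transfection and a later collection counted from it. The design text also speaks of cardiac myocytes where the sample labels say fibroblasts. Wwtr1 is also known as Taz, and the Yap gene carries the symbol Yap1; both proteins are related coactivators that work with TEAD transcription factors.

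Chemokines bind receptors on leukocytes and are grouped by the spacing of their first cysteines into CXC, CC and CX3C types. Cxcl9, Cxcl10 and Cxcl11 share the receptor Cxcr3 of T and natural killer cells and are classic interferon-induced genes, and Ccl5 attracts the same kinds of cells. Ccl2 and Ccl7 draw monocytes and Cxcl1 draws neutrophils, usually as targets of the transcription factor NF-kB, Cxcl12 is a homeostatic chemokine of stromal cells, and Cxcl16 and Cx3cl1 are made as membrane proteins that proteases can release. Fibroblasts are a known source of these signals in injured hearts.

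The knockdown and the cells were checked first. Yap1 was 2984 to 3776 normalized counts (reads divided by a size factor per library) in the controls and 532 to 625 with Yap siRNA, and Wwtr1 was 2280 to 2565 in the controls and 524 to 637 with Wwtr1 siRNA. With both siRNAs Yap1 was 713, 739 and 1474 and Wwtr1 was 818, 731 and 1056, so replicate 3 kept the most of both. Library totals ran from 33.9 to 41.1 M reads. Yap1 fell by 2.49 with Yap siRNA (log2 fold change -2.49, adjusted p 0.000271, SE 0.22) and Wwtr1 by 2.08 with Wwtr1 siRNA (-2.08, adjusted p 2.33e-05, SE 0.13). All 10 fibroblast markers examined were above 0 in every library, and in the double knockdown 3 were called higher and 3 lower, where 32.8% of all genes were called. Macrophage markers (11 of 12 in the table, none of them at 0 in any library) and cardiomyocyte markers (10 of 10, none at 0) were present as well. In bulk RNA, fewer cells of a type and less RNA per cell cannot be told apart.

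Of the chemokine genes, 6 rose in the double knockdown, and no tested chemokine fell in any comparison. Cxcl10 and Cxcl11 also rose with Yap siRNA alone and with Wwtr1 siRNA alone, and Ccl5 rose with Yap siRNA. The rise in the double knockdown took in Cxcl16, Ccl7 and Cx3cl1, which did not pass the test in either single knockdown. Against the single knockdowns themselves, Cxcl16 was higher in the double knockdown than in both and Ccl7 than with Wwtr1 siRNA, while Cx3cl1 did not differ past the threshold from either. Ccl2, Cxcl1 and Cxcl12 did not pass it against negative siRNA. In all, 3 of 9 tested members were called (limma adjusted p under 0.05 over 11871 genes) with Yap siRNA, 2 after Wwtr1 siRNA and 6 after both, all of them higher. Of all genes tested, 4.8%, 8.96% and 32.8% were called in these comparisons, and 3.02%, 5% and 17.1% were called as higher. The median log2 fold change of the 9 members was 0.48, 0.35 and 1.52, where that of all genes tested was within 0.01 of 0 each time. These 3 comparisons share the negative siRNA libraries. Libraries of the compared groups did not overlap for 4 members with Yap siRNA (all higher, as for 13.5% of all genes), for 3 higher members (16.6%) and 1 lower member (16%) with Wwtr1 siRNA, and for 7 members in the double knockdown (all higher, 23.1%).

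**Figure D1:**
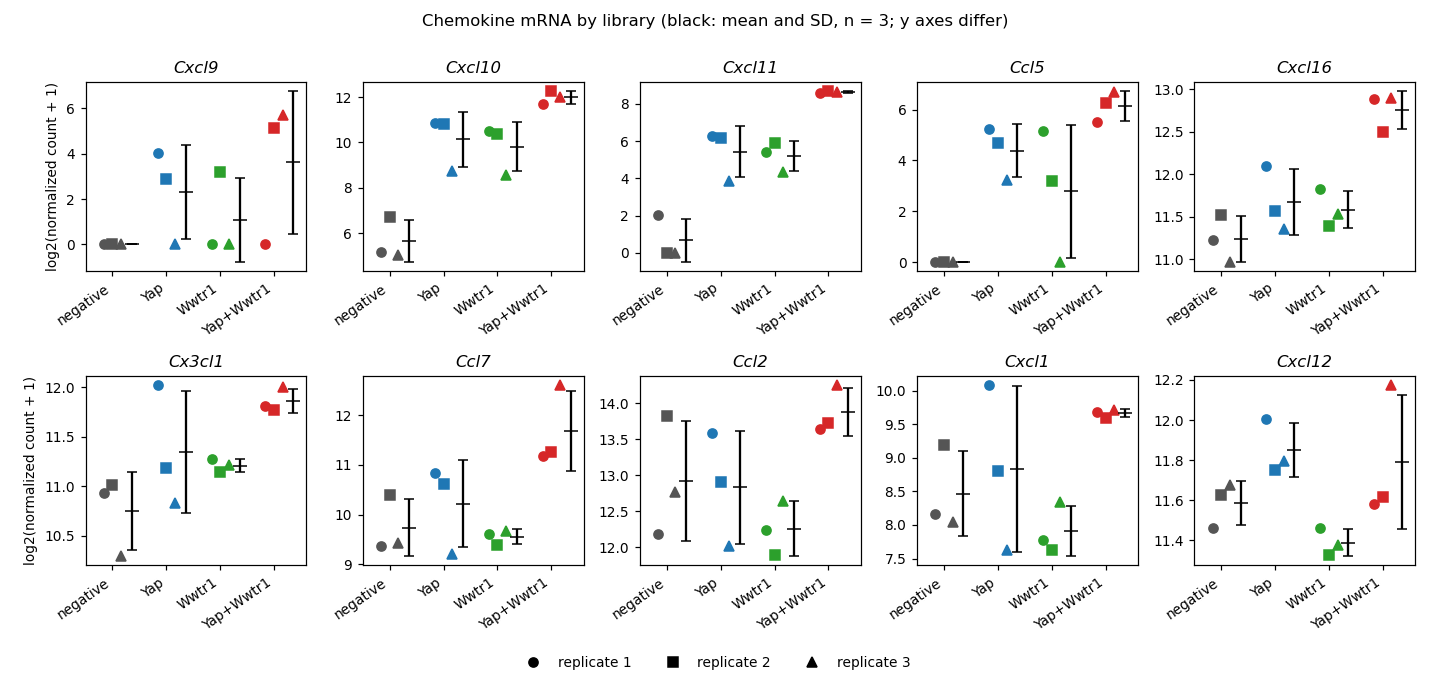
Each panel shows one chemokine gene, with log2(normalized count + 1) on the y axis and the 4 siRNA groups on the x axis; symbols mark replicate numbers and black bars the mean and SD of 3 libraries. Every double knockdown library lay above every negative siRNA library for Cxcl10, Cxcl11, Ccl5, Cxcl16, Cx3cl1, Ccl7 and Cxcl1, whereas Ccl2 and Cxcl12 overlapped.

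Cxcl10, Cxcl11 and Cxcl9 are neighbours on rat chromosome 14. Their promoters are shown because Cxcl10 and Cxcl11 rose together. Each sequence is the 250 bases before the RefSeq transcription start in GRCr8, with matches to the searched motifs in capitals. The motifs, searched on both strands, were the interferon response core GAAANNGAAA, the gamma-activated site TTCNNNGAA, the kappa B pattern GGGNNNNNCC, the AP-1 site TGANTCA and the TEAD site GGAATG.
Cxcl10 (chr14:15988816-15989065, plus strand): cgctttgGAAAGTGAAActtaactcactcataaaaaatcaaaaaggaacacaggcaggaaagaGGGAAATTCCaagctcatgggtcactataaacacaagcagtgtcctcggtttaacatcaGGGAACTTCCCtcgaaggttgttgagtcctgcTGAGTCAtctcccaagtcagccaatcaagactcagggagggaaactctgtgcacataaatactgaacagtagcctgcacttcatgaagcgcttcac
Cxcl11 (chr14:15973478-15973727, plus strand): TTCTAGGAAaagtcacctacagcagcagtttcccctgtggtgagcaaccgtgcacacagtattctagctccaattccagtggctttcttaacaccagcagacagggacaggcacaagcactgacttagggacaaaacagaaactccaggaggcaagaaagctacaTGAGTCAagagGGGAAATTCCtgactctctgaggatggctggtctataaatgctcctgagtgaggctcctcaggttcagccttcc
Cxcl9 (chr14:16006916-16007165, plus strand): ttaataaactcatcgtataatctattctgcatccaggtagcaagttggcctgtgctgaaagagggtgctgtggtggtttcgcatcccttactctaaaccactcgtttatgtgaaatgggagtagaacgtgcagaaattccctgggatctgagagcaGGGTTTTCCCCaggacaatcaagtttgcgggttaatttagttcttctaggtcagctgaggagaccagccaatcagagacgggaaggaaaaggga
Cxcl10 held 1 interferon response core, kappa B matches at 2 places and 1 AP-1 match. Cxcl11 held 1 gamma-activated site at its first bases, 1 kappa B match and 1 AP-1 match. Cxcl9 held kappa B matches at 1 place, where shifted and reversed readings overlap. The interferon response core was in 3.41% of the 33469 promoters of the same length, the gamma-activated site in 7.67%, the kappa B pattern in 42.3%, the AP-1 site in 6.34% and the TEAD site in 12.1%. A match is a description of letters, and binding was not measured.

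Cxcl10 was low in the controls, at 34.9, 103 and 32.0 normalized counts. With Yap siRNA it was 1859, 1805 and 423. With Wwtr1 siRNA it was 1439, 1323 and 376. All single knockdown libraries were above all negative siRNA libraries, and replicate 3 was the lowest in both single knockdowns. The rise was 4.50 on the log2 scale with Yap siRNA (adjusted p 0.00441, SE 0.64) and 4.17 with Wwtr1 siRNA (adjusted p 0.00238, SE 0.64). In the double knockdown Cxcl10 was 3327, 4970 and 4055, above every single knockdown library, and 6.35 higher than negative siRNA on the log2 scale (adjusted p 3.95e-05, SE 0.64). The ratio of group means was 24.1 with Yap siRNA, 18.5 after Wwtr1 siRNA and 72.7 after both.

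Cxcl11 followed the same order of groups at lower counts. Negative siRNA libraries held 3.08, 0 and 0 normalized counts, which is 3 reads in all. The values were 77.9, 69.6 and 13.6 with Yap siRNA, and 41.7, 59.2 and 19.3 after Wwtr1 siRNA. They were 389, 416 and 398 in the double knockdown, with no overlap between that group and any other. The normalized ratio to negative siRNA was 52.7 with Yap siRNA (95% exact interval 17.7 to 258, counting error only), 39.3 after Wwtr1 siRNA (13.1 to 193) and 394 after both (134 to 1911). The adjusted p of the limma test was 0.0055, 0.00266 and 2.07e-05. The fitted log2 fold change is not given as a size, since it depends on the value added before the log.

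Cxcl9 and Ccl5 were listed at 0 in all 3 negative siRNA libraries, so no fold is given for them. Ccl5, an attractant of T cells, was 36.9, 24.6 and 8.38 normalized counts with Yap siRNA. It was 34.4, 8.16 and 0 after Wwtr1 siRNA and 44.8, 76.1 and 101 after both. Its limma adjusted p against negative siRNA was 0.0443 with Yap siRNA, 0.146 after Wwtr1 siRNA and 0.00133 after both. This first call did not survive 8 of 12 fits with a library removed, with an adjusted p of up to 0.166 (without Yap siRNA replicate 1), while the double knockdown call was kept in all 12. Leaving out Wwtr1 siRNA replicate 3, the library at 0, gave Ccl5 an adjusted p of 0.0127 with Wwtr1 siRNA, and DESeq2 on all libraries called it there (adjusted p 0.00137). Cxcl9 was read in 5 libraries: 15.4 and 6.43 in Yap siRNA replicates 1 and 2, 8.16 in Wwtr1 siRNA replicate 2, and 34.3 and 51.8 in double knockdown replicates 2 and 3. With no filter on low values Cxcl9 had a limma adjusted p of 0.115 in the double knockdown, where 1 of the 3 libraries was at 0.

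Cxcl16 and Cx3cl1, the chemokines made as membrane proteins, rose in the double knockdown. Cxcl16 was 2406, 2930 and 2006 normalized counts in the controls and 7558, 5806 and 7626 in the double knockdown, and these groups did not overlap. Its Yap siRNA values of 4393, 3031 and 2620 and its Wwtr1 siRNA values of 3623, 2695 and 2975 lay lower, and both ranges overlapped that of negative siRNA. The double knockdown was 1.52 higher than negative siRNA on the log2 scale (adjusted p 0.000163, SE 0.20). The single knockdowns differed from negative siRNA by 0.43 with Yap siRNA (adjusted p 0.247, SE 0.20) and 0.35 with Wwtr1 siRNA (adjusted p 0.315, SE 0.20). Cx3cl1, known as fractalkine, was 1953, 2064 and 1254 in the controls and 3588, 3492 and 4093 in the double knockdown, a difference of 1.11 on the log2 scale (adjusted p 0.00583, SE 0.25). Its 3 Yap siRNA libraries spread widely, at 4160, 2321 and 1818, and replicate 1 was the highest of all 12. Its Wwtr1 siRNA libraries lay close together, at 2470, 2256 and 2367, all above negative siRNA, with a difference of 0.46 that did not pass the test (adjusted p 0.30, SE 0.25). Nor did its difference of 0.60 with Yap siRNA (adjusted p 0.218, SE 0.25). The double knockdown was 0.52 above Yap siRNA (adjusted p 0.203) and 0.65 above Wwtr1 siRNA (adjusted p 0.0919) for Cx3cl1, neither past the threshold.

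Ccl7 rose in the double knockdown, while its neighbour on chromosome 10, Ccl2, varied among the negative siRNA libraries. Ccl7 was 663, 1349 and 692 normalized counts in the controls and 2306, 2437 and 6255 in the double knockdown. The lowest double knockdown library was above the highest negative siRNA library, and the difference was 1.94 on the log2 scale (adjusted p 0.00639, SE 0.45). With Yap siRNA Ccl7 was 1818, 1558 and 594, and with Wwtr1 siRNA it was 778, 667 and 812, neither of which passed the test (limma adjusted p 0.611 and 0.846). The Ccl7 promoter is shown because it alone of the 8 members' promoters found in RefSeq held a TEAD match. Of all promoters, 12.1% held one.
Ccl7 (chr10:67513845-67514094, plus strand): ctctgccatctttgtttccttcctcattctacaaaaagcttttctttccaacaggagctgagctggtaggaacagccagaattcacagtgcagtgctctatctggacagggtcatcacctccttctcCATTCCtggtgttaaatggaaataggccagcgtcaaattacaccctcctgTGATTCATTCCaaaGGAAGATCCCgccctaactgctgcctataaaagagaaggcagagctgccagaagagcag
It held 1 kappa B match as well. Its 2 TEAD matches read on the minus strand, and the one nearer the start overlaps the AP-1 match. The promoters of Cxcl12, Cxcl16 and Cx3cl1 held no match to the 5 motifs, Cxcl1 held kappa B matches at 2 places, and Ccl2 and Ccl5 are named only.

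Double knockdown replicate 3 stood apart for Ccl7 and for macrophage markers. The summed level of the 11 macrophage markers was 50252 normalized counts in that library, 7283 and 14388 in double knockdown replicates 1 and 2, and 12223 to 33408 in the other groups. Of these 11 markers, 10 were at their highest of all 12 libraries in replicate 3, and all 11 were at their lowest in replicate 1. None of the 11 was called in the double knockdown against negative siRNA by limma, edgeR or DESeq2, and 1 had an unadjusted limma p under 0.05. In replicate 1, with the lowest macrophage sum, Ccl7 was 2306, and in replicate 3, with the highest, it was 6255. Without replicate 3 the log2 difference of Ccl7 from negative siRNA was 1.47 (limma adjusted p 0.0165), that of Cxcl16 was 1.45 (0.000508) and that of Cx3cl1 was 1.04 (0.0153). Replicate 3 was also the highest of 12 for 14 of 18 other chemokine genes, among them Ccl12 at 3863 normalized counts against 86.5 to 642 elsewhere and Ccl3, a macrophage chemokine, at 801 against 88.5 to 322. Among markers of other cells, 5 of 10 endothelial and 3 of 10 cardiomyocyte genes were called higher in the double knockdown. Of all genes, 17.1% were. The part of these cells, and of macrophages, in the chemokine values was not tested.

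**Figure D2:**
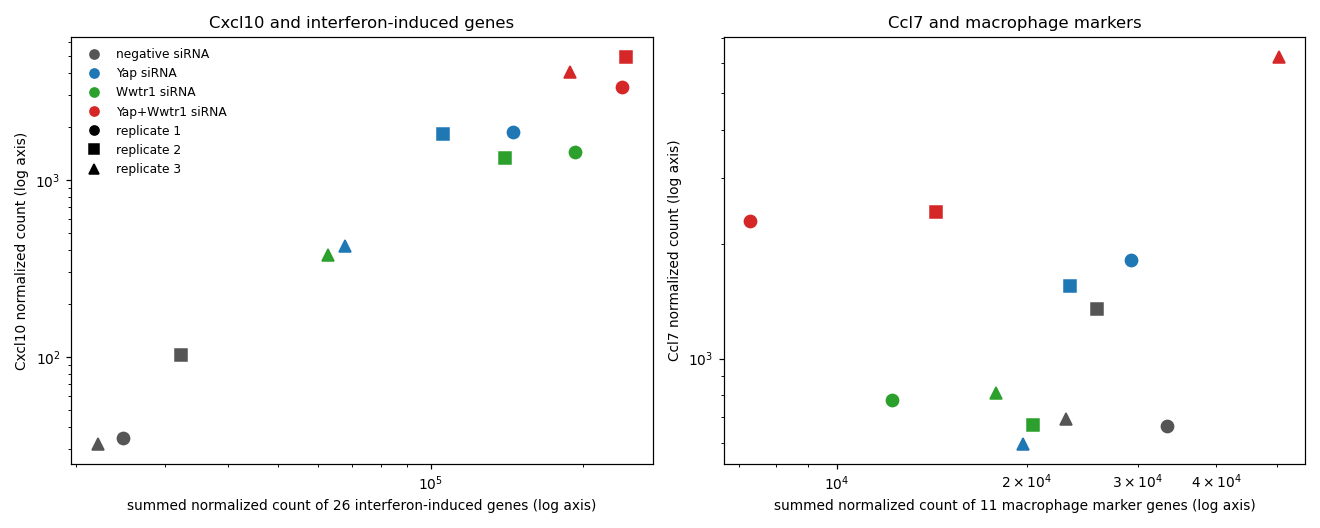
Left, the Cxcl10 normalized count of each library against the summed normalized count of 26 interferon-induced genes; right, Ccl7 against the sum of 11 macrophage markers (both axes logarithmic, colours for siRNA groups, symbols for replicate numbers). Both Cxcl10 and the interferon-induced sum were lowest in the 3 negative siRNA libraries, and Cxcl10 was highest in the 3 double knockdown libraries. Double knockdown replicates 1, 2 and 3 had Ccl7 at 2306, 2437 and 6255 and macrophage sums of 7283, 14388 and 50252.

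Ccl2, the main monocyte attractant, was 4639, 14432 and 6990 normalized counts in the controls. It was 12245, 7704 and 4141 with Yap siRNA, 4830, 3784 and 6411 after Wwtr1 siRNA, and 12794, 13588 and 19566 after both. Negative siRNA replicate 2 was more than any single knockdown library and overlapped the double knockdown. The log2 difference between double knockdown and negative siRNA was 0.95 (adjusted p 0.104, SE 0.42), and without that library it was 1.40 (limma adjusted p 0.0217). Cxcl1, a neutrophil attractant, had the same high library: it was 284, 583 and 264 in the controls. In the double knockdown Cxcl1 was 822, 773 and 833, all above negative siRNA, with a log2 difference of 1.20 that did not pass the test (adjusted p 0.0807, SE 0.49). Cxcl1 passed it without negative siRNA replicate 2 (limma adjusted p 0.0454), without Yap siRNA replicate 1 (0.0219) or 3 (0.0249), and in the compared groups alone (0.0199). Its Yap siRNA libraries ran from 196 to 1085 and its Wwtr1 siRNA libraries from 196 to 322.

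Cxcl12, the homeostatic member, was not called against negative siRNA. It was 2821, 3156 and 3266 normalized counts in the controls, 4109, 3442 and 3559 with Yap siRNA, and 2814, 2568 and 2657 after Wwtr1 siRNA. Yap siRNA libraries were all above and Wwtr1 siRNA libraries all below those of negative siRNA, yet neither difference passed the test (log2 0.26, limma adjusted p 0.318, and -0.20, limma adjusted p 0.421). In the double knockdown Cxcl12 was 3065, 3132 and 4626, a log2 difference of 0.20 with a 95% interval from -0.10 to 0.50.

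**Figure D3:**
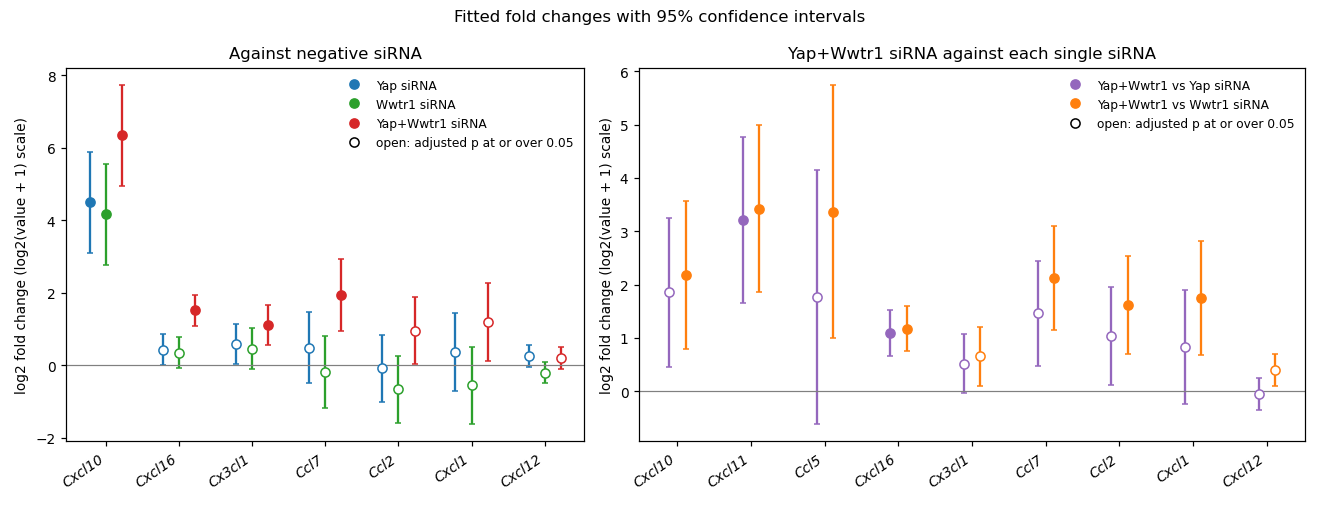
Fitted log2 fold changes with 95% confidence intervals (y axis) of each member (x axis), against negative siRNA on the left and for the double knockdown against each single knockdown on the right; filled points have an adjusted p under 0.05. Cxcl11 and Ccl5 are left out on the left because negative siRNA libraries were at or near 0; in the double knockdown Cxcl10, Cxcl16, Cx3cl1 and Ccl7 are filled, and Cxcl12 lies closest to 0.

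The double knockdown was then set against each single knockdown, to ask whether loss of both genes gave more than loss of one. At 25 nM of each siRNA, a double knockdown would hold more siRNA in all than a single one. The part of this amount in these comparisons, or in the interaction, was not tested. Against Wwtr1 siRNA, 7 of 9 members were higher, where 19.9% of all genes were called and 9.75% as higher. All 9 had no overlap with the Wwtr1 siRNA libraries, as had 18.9% of all genes in that direction, and 6 had none with the Yap siRNA libraries (16.2%). Against Yap siRNA, 2 of 9 were higher, Cxcl11 and Cxcl16, where 13.8% of all genes were called and 6.83% as higher. Cxcl11 was 3.21 above Yap siRNA on the log2 scale (adjusted p 0.0126, SE 0.72) and 3.43 above Wwtr1 siRNA (adjusted p 0.00655, SE 0.72). Cxcl16 was 1.09 above Yap siRNA (adjusted p 0.00435, SE 0.20) and 1.18 above Wwtr1 siRNA (adjusted p 0.00205, SE 0.20). Both held against the single knockdowns in all 12 fits that left out 1 library, and Cxcl11 missed the threshold in both comparisons with a pseudocount of 0.1 (adjusted p 0.0909 and 0.0595).

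Of the other calls against Wwtr1 siRNA, that of Ccl7 was kept in all 12 such fits and those of Ccl2, Cxcl10, Cxcl1 and Ccl5 were lost in 2, 4, 5 and 11 of them. The log2 difference ran from 1.43 to 1.81 for Ccl2, 1.56 to 2.52 for Cxcl10 and 1.61 to 1.96 for Cxcl1. Ccl7 was 2.13 higher than with Wwtr1 siRNA (adjusted p 0.00712, SE 0.45) and 1.46 higher than with Yap siRNA, just short of the threshold (adjusted p 0.0507, SE 0.45), which it passed under 3 other settings (DESeq2 adjusted p 0.0328) and in 2 fits without 1 library. Ccl2 was 1.62 above Wwtr1 siRNA (adjusted p 0.0193, SE 0.42), Cxcl1 1.75 (adjusted p 0.0267, SE 0.49) and Cxcl10 2.18 (adjusted p 0.0327, SE 0.64). Ccl5 was 3.37 above Wwtr1 siRNA (adjusted p 0.0486, SE 1.09), a size that depends on the value added before the log because 1 library was at 0. The count of 7 fell to 4 without Wwtr1 siRNA replicate 2 and to 3 (Cxcl11, Cxcl16 and Ccl7) without double knockdown replicate 3. The count of 2 against Yap siRNA rose to 5 without Yap siRNA replicate 1, the library with the highest Cxcl1 and Cx3cl1 of that group. Against Yap siRNA, Cxcl10 was 1.85 higher with no overlap between libraries (adjusted p 0.0769, SE 0.64).

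No member differed between Yap siRNA and Wwtr1 siRNA in limma, where 8.79% of all genes were called, and 1 member had an unadjusted p under 0.05. That member was Cxcl12, 0.46 higher with Yap siRNA on the log2 scale (adjusted p 0.0580, SE 0.14), with no overlap between its libraries, as for 15.8% of all genes in that direction. With the replicate number as a block and the double knockdown libraries left out, Cxcl12 passed the test (limma adjusted p 0.00314). edgeR called 0 members and DESeq2 called Cxcl12 (adjusted p 0.0176). Cxcl10 differed by 0.33 between the single knockdowns, with a 95% interval from -1.07 to 1.72, and Cxcl11 by 0.21, with an interval from -1.35 to 1.77. All 9 members were higher with Yap siRNA than with Wwtr1 siRNA by their fitted value, with a median of 0.46, but for Cxcl10, Cxcl11, Cxcl16 and Cx3cl1 the sign turned when some single libraries were left out.

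The interaction asked whether the double knockdown effect departed from what adding the single effects on the log2 scale gives. No member was called in limma, where 1.03% of all genes were, and edgeR and DESeq2 called 0 members as well. Unadjusted p was under 0.05 for 4 members. Cxcl10 rose less than the sum, by 2.32 (interaction -2.32, adjusted p 0.268, SE 0.90), although its level was highest with both siRNAs. For Ccl2 the interaction was 1.71 (adjusted p 0.216, SE 0.60), for Ccl7 1.65 (adjusted p 0.263, SE 0.64) and for Cxcl16 0.74 (adjusted p 0.243, SE 0.28). None of these differences from the sum holds after adjustment.

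Same-numbered libraries of the negative, Yap and Wwtr1 siRNA groups were compared within each number, since their deviations were weakly correlated (0.104 to 0.276). Cxcl10 with Yap siRNA was 51.8, 17.4 and 12.8 times the negative siRNA library of numbers 1, 2 and 3 (each value plus 1), and with Wwtr1 siRNA 40.1, 12.7 and 11.4 times. Ccl2 went both ways with Yap siRNA, at 2.64, 0.534 and 0.593 times. Cxcl1 did so too, at 3.81, 0.761 and 0.744 times. Cx3cl1 was higher than its numbered control in every pair, at 2.13, 1.12 and 1.45 times with Yap siRNA and 1.26, 1.09 and 1.89 times with Wwtr1 siRNA. Cxcl16 with Yap siRNA was also higher in every pair, at 1.83, 1.03 and 1.31 times. Cxcl12 was higher in every pair with Yap siRNA, at 1.46, 1.09 and 1.09 times, and lower in every pair with Wwtr1 siRNA, at 0.998, 0.814 and 0.814 times.

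**Figure D4:**
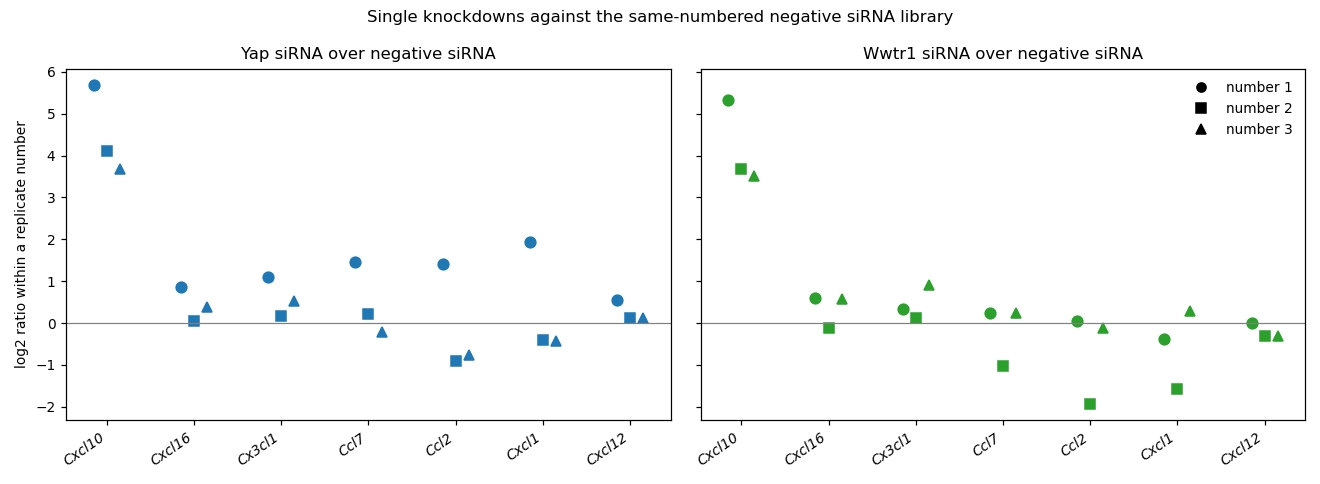
Log2 ratio of each single knockdown library to the negative siRNA library of the same number (y axis, each value plus 1), for 7 members (x axis), Yap siRNA on the left and Wwtr1 siRNA on the right; symbols mark the number. Cxcl10 lies far above 0 in every pair, and Ccl2 and Cxcl1 lie on both sides of 0.

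Genes that make up the surroundings of these chemokines were described from lists, beginning with other chemokines. Of 16 tested, 1 was called higher with Yap siRNA, 1 after Wwtr1 siRNA and 3 after both, and none lower, where 3.02%, 5% and 17.1% of all genes were called higher. Cxcl13, a B cell attractant, was called in all 3 comparisons. It was 0, 3.00 and 0 normalized counts in the controls (3 reads), 22.5, 15.0 and 11.5 with Yap siRNA, 25.0, 10.2 and 5.08 after Wwtr1 siRNA, and 246, 277 and 456 after both. Its normalized ratio to negative siRNA was 16.1 (95% exact interval 5.18 to 80.8), 13.1 (4.16 to 66.2) and 322 (110 to 1565). Cxcl6 and Cxcl17 were called in the double knockdown, at 60.7, 71.9 and 216 and at 121, 58.5 and 72.0, and were at most 8.27 in the controls. Cxcl13, Cxcl6 and Cxcl17 thus passed the limit of 10 only through knockdown libraries.

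Of the chemokine receptors, 8 of 23 listed were in the table and 7 were tested. Cx3cr1, the receptor of Cx3cl1 and a macrophage gene, went the opposite way to its ligand in the double knockdown. It was 276, 260 and 295 normalized counts in the controls, 51.2, 52.5 and 62.8 with Yap siRNA, 21.9, 55.1 and 95.5 after Wwtr1 siRNA, and 0, 24.2 and 48.3 after both. Every knockdown library was below every negative siRNA library. However, limma called Cx3cr1 in the double knockdown only (adjusted p 0.00647, against 0.27 with Yap siRNA and 0.193 after Wwtr1 siRNA). Each of these tests used the same SE of 1.09, which took in the double knockdown library at 0. In limma, the double knockdown level of Cx3cr1 did not differ past the threshold from that with Yap siRNA (adjusted p 0.169) or Wwtr1 siRNA (adjusted p 0.177). In the double knockdown limma called 3 of the 7 receptors, 2 higher and 1 lower, where 32.8% of all genes were called. Neither limma nor edgeR called a receptor in a single knockdown, where limma called 4.8% (Yap siRNA) and 8.96% (Wwtr1 siRNA) of all genes. DESeq2 called 1 with Yap siRNA and 2 with Wwtr1 siRNA. The macrophage sums given above overlapped between negative siRNA and every knockdown group except Wwtr1 siRNA. Ackr3, a scavenger receptor for Cxcl12, rose by 1.07 in the double knockdown (adjusted p 0.0416, SE 0.37), with its highest value of 2013 normalized counts in replicate 3 against 735 and 756. Ccrl2, an atypical receptor, rose by 1.04 (adjusted p 0.0322, SE 0.33).

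Proteases that release or trim chemokines were measured because Cxcl16 and Cx3cl1 are shed by Adam10 and Adam17. Of 6 tested, none was called in either single knockdown by limma, edgeR or DESeq2 (0 with Yap siRNA and 2 with Wwtr1 siRNA had an unadjusted p under 0.05), and 3 were higher in the double knockdown, where 17.1% of all genes were. Adam17 was 3328, 3736 and 3388 normalized counts in the controls, 3208 to 3861 with Yap siRNA, 3672 to 3995 after Wwtr1 siRNA, and 7520, 6894 and 5842 after both. It rose by 0.95 on the log2 scale (adjusted p 4.48e-05, SE 0.10), 0.77 more than the sum of the single effects (adjusted p 0.0260, SE 0.14). Mmp2, a gelatinase, rose by 0.85 (adjusted p 0.000209, SE 0.11) and was also above the sum, by 1.12 (adjusted p 0.0103, SE 0.16). Mmp14 rose by 0.42 (adjusted p 0.0090, SE 0.10). Adam10 differed by 0.17 (adjusted p 0.209, SE 0.10).

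Interferon signalling genes were measured beside Cxcl10 and Cxcl11. Of 26 tested interferon-induced genes, chosen without the chemokines, 25 were higher with Yap siRNA, 26 after Wwtr1 siRNA and 26 after both. Of all genes tested, 3.02%, 5% and 17.1% were called higher in these comparisons. The median log2 fold changes of the 26 were 3.10, 3.54 and 4.77. Between the double knockdown and Yap siRNA the median difference of the 26 was 1.23 on the log2 scale. Of the 26, 2 were called there by limma (Gbp2 and Bst2, both higher), where 13.8% of all genes were, 5 were called by DESeq2, and 17 had an unadjusted limma p under 0.05. Against Wwtr1 siRNA the median was 1.12 and limma called 1 of them, Oasl, where 19.9% of all genes were called. DESeq2 called 2 there, and 10 had an unadjusted limma p under 0.05. Their median interaction was -2.06, with 1 called lower by limma, where 1.03% of all genes were called. edgeR called 0 of the 26 and DESeq2 6, and 21 had an unadjusted limma p under 0.05. The summed level of the 26 genes was 22095 to 32204 normalized counts in the controls, 67817 to 145490 with Yap siRNA, 62852 to 192105 after Wwtr1 siRNA and 187853 to 242758 after both. Replicate 3 was the lowest library of both single knockdowns in this sum, as it was for Cxcl10 and Cxcl11. Of the 11 interferon factors and receptors tested, 4 were higher and 1 lower with Yap siRNA, 3 and 2 after Wwtr1 siRNA, and 6 and 2 after both, where 4.8%, 8.96% and 32.8% of all genes were called. Irf7, an amplifier of the interferon response, rose by 4.13, 4.20 and 5.59 on the log2 scale with Yap siRNA, Wwtr1 siRNA and both (limma adjusted p 0.00393, 0.00130 and 4.45e-05). Stat2 and Irf9, which form the factor that binds the interferon response core, were higher in all 3. Irf1 passed the test in the double knockdown alone, higher by 1.05 (adjusted p 0.000423, SE 0.16), and Ifngr1, a receptor chain for interferon gamma, was lower in all 3 comparisons, by 0.47, 0.37 and 0.61 (log2 fold changes of -0.47, -0.37 and -0.61).

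The list of inducing cytokines and sensors held 13 tested genes, of which 2 were higher with Yap siRNA, 2 were higher and 1 lower after Wwtr1 siRNA, and 9 were higher after both, where 4.8%, 8.96% and 32.8% of all genes were called. Ddx58 and Ifih1, sensors of double-stranded RNA, rose in all 3 comparisons, by 2.62, 2.68 and 3.42 and by 2.01, 2.35 and 2.98 on the log2 scale. Tlr3, which senses double-stranded RNA in endosomes, rose by 0.91 (adjusted p 0.000365, SE 0.13) and Tlr2, a sensor of bacterial lipoproteins, by 1.13 (adjusted p 0.00588, SE 0.26) in the double knockdown. Il6 was 0, 19.0 and 16.5 normalized counts in the controls and 146, 97.0 and 97.4 in the double knockdown (limma adjusted p 0.0107). Tnf, a strong inducer of Ccl2 and Cxcl1, was 22.6, 38.0 and 35.1 in the controls and 45.7, 71.1 and 140 in the double knockdown (limma adjusted p 0.0485).

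NF-kB factors were called in the double knockdown and in neither single knockdown. Of 11 tested, 7 were higher and 1 was lower in the double knockdown, where 32.8% of all genes were called, with a median of 0.30, and 0 were called with Yap siRNA or Wwtr1 siRNA in limma, edgeR or DESeq2, where unadjusted limma p was under 0.05 for 2 and 1 genes. Set against the single knockdowns, the double knockdown had 3 of the 11 higher than with Yap siRNA, where 13.8% of all genes were called, and 8 higher and 1 lower than with Wwtr1 siRNA, where 19.9% were. The interaction called 0 of the 11 in limma and edgeR and 3 in DESeq2, where limma called 1.03% of all genes. Of the 11, 8 had an unadjusted limma p under 0.05. Bcl3, a nuclear cofactor of NF-kB, rose by 1.03 (adjusted p 0.0078, SE 0.25). Nfkbia, the inhibitor that NF-kB itself induces, rose by 0.79 (adjusted p 0.0148, SE 0.21) and Nfkb1, a subunit, by 0.46 (adjusted p 0.00125, SE 0.08). Chuk, a kinase of the pathway, fell by 0.42 on the log2 scale (log2 fold change -0.42, adjusted p 0.00629, SE 0.10). Among 5 factors that regulate the decay of messenger RNA, Zfp36l1, which promotes decay of AU-rich messages, was called in the double knockdown, higher by 1.02 (adjusted p 0.000585, SE 0.16), where 17.1% of all genes were called higher.

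**Figure D5:**
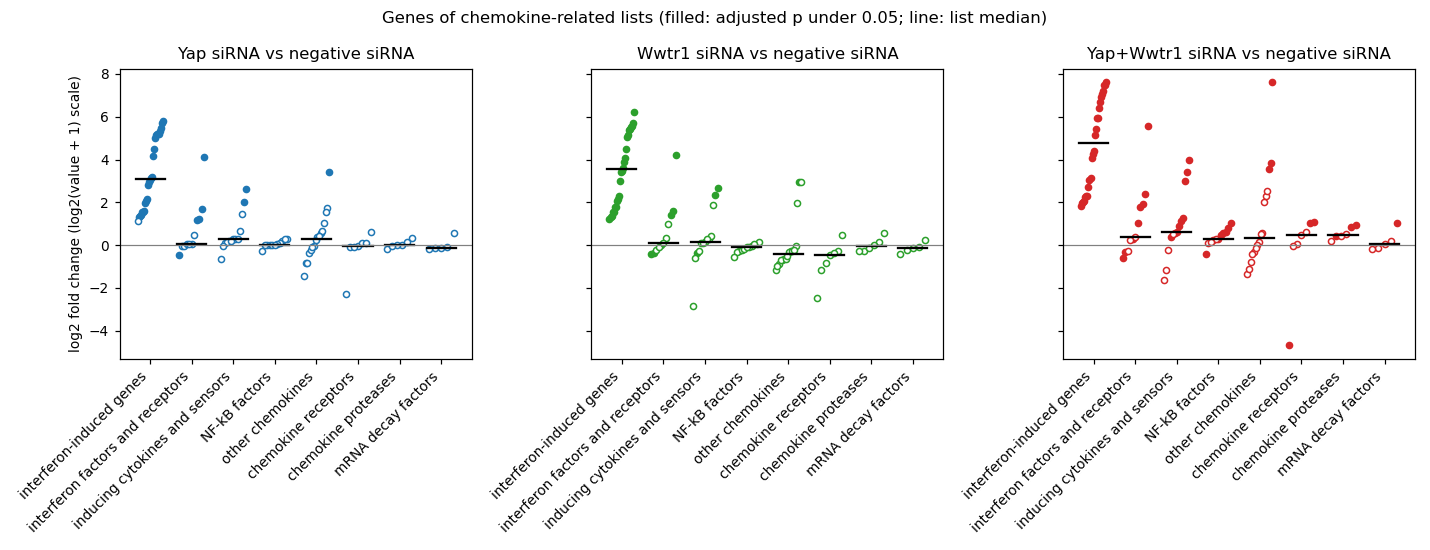
Log2 fold changes against negative siRNA (y axis) of the tested genes of 8 lists (x axis), one panel for each knockdown; filled points have an adjusted p under 0.05 and black lines are list medians. Interferon-induced genes lie high in all 3 panels (medians 3.10, 3.54 and 4.77), and NF-kB factors have filled points in the double knockdown panel alone; Zbp1 is not drawn, since its negative siRNA libraries were at 0.

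The genes most like each member were found by Pearson r of log2(normalized count + 1) over the 12 libraries, which share 4 groups of 3, among 10101 other genes with a mean of at least 100. Oasl was most like Cxcl10 (r 0.99, and 0.96 for deviations from group means), followed by RT1-T24-3 (r 0.99). Socs1 was most like Cxcl11 (r 0.99) and Nmi most like Ccl5 (r 0.99). Nfkb2 (r 0.96) and Nfkbia (r 0.93) were most like Ccl2, and Srgap2 (r 0.94) and Bcl3 (r 0.94) most like Cxcl1. C3 and St6galnac2 were most like Ccl7 (r 0.96 each), Serping1 and Gda most like Cxcl16 (r 0.98 each), Vcam1 most like Cx3cl1 (r 0.95) and Ift74 most like Cxcl12 (r 0.93). Among the members themselves, Cxcl10 and Cxcl11 had r 0.95, Ccl2 and Cxcl1 had r 0.93, and Cxcl10 and Ccl2 had r 0.39. These values describe the libraries and carry no test.

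The order of the groups differed between members. Cxcl10, Cxcl11, Cxcl16, Ccl5 and Cx3cl1 had the mean order negative, Wwtr1, Yap and double knockdown. For Cxcl10 only the step from negative siRNA to Wwtr1 siRNA passed the test among neighbours, for Cxcl11 the first and the last step, and for Cxcl16 the last step from Yap siRNA to the double knockdown. No neighbouring step passed it for Ccl5 and Cx3cl1. Ccl7, Ccl2 and Cxcl1 had their lowest mean with Wwtr1 siRNA (753, 5008 and 245 normalized counts) and their highest in the double knockdown (3666, 15316 and 809), and no step between neighbouring groups passed the test. For Ccl7 the last step, from Yap siRNA to the double knockdown, had no overlap between libraries and an adjusted p of 0.0507. Cxcl12 was lowest with Wwtr1 siRNA (2680 ± 125, SD, n = 3) and highest with Yap siRNA (3703 ± 356, SD, n = 3).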

How the data were processed

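RNA was sequenced from 12 libraries of cultured rat cardiac fibroblasts, 4 siRNA groups of 3. According to the study's methods and the labels, the authors trimmed reads (Trim Galore 0.6.5), aligned them to rn6 with HISAT2, estimated abundance with StringTie and normalized with DESeq2. The deposited signal values are counts divided by a size factor per library. In each library 100% of values were whole multiples of 1 step (tolerance 0.01), and these were taken as reads, 33.9 to 41.1 M per library. The authors' own fold changes and p-values were not used. Whether counting used the strand is not given in the sources used here, and near-identical genes can share reads.

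Values were tested as log2(normalized count + 1) with limma 3.58.1 (R 4.3.3; all 12 libraries in 1 fit, trended eBayes, two-sided, Benjamini-Hochberg over 11871 genes with a mean of at least 10, threshold 0.05). Fold changes on this scale understate those of low genes. Some zeros may be failed estimates, since 6 zeros (5 genes) stood beside values over 100 in both other libraries of the group. Alternatives were pseudocounts of 0.1 and 10, no filter or a mean of 100, scaling by TMM or the upper quartile, the count tests of edgeR 4.0.16 and DESeq2 1.42.0, the compared groups alone, no trend, a replicate block and leaving out each library. The steps were tested on simulated counts. Replicate libraries differed beyond sampling noise (chi-square per gene at least 19.7). Same-numbered libraries of negative, Yap and Wwtr1 siRNA deviated together weakly (9 correlations, 0.104 to 0.276, each over a limit of 0.1). These groups were therefore compared by number. With the double knockdown the correlations were -0.127 to 0.180, a range that overlaps the first. Whether its numbers pair with the others is not settled by these values. Intervals cover counting error or the spread between libraries. Promoters came from RefSeq (GRCr8) for 8 of 10 members, and 96.7% of symbols matched that assembly.

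The members and lists were chosen with earlier results of these data known. Named genes were the members, Yap1, Wwtr1, genes of the lists called in at least 1 comparison, and the 2 genes most like each tested member. Ccl3, Ccl12 and Adam10 in the double knockdown comparison were named after their values were seen.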

Additional observations from a re-analysis of the deposited data

How the results depend on the processing

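The calls of Cxcl10 and Cxcl11 in each knockdown against negative siRNA, and of Cxcl16, Ccl5, Ccl7 and Cx3cl1 in the double knockdown, were kept under every alternative that tested them. Counts of members called, leaving out each library in turn, were 2 to 3 with Yap siRNA, 2 to 3 with Wwtr1 siRNA, 6 to 8 in the double knockdown, 2 to 5 for the double knockdown against Yap siRNA, 3 to 7 against Wwtr1 siRNA, 0 to 1 between the single knockdowns and 0 for the interaction. The 8 came without negative siRNA replicate 2. With a pseudocount of 0.1 the count against Yap siRNA was 1, and with no trend the count against Wwtr1 siRNA was 4. Between the single knockdowns, 1 member (Cxcl12) was called with DESeq2, in the compared groups alone, and with a replicate block without the double knockdown libraries. The replicate block over all 12 libraries changed 1 call, Cxcl10 in the double knockdown against Yap siRNA (limma adjusted p 0.0177). Ccl5 with Yap siRNA lost its call with a pseudocount of 10, with edgeR, in the compared groups alone and with no trend, and its call against Wwtr1 siRNA was lost under 5 of the other alternatives. The cause was not tested.

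Direction turned in 26 values, none of them called in either fit. Against negative siRNA, leaving out 1 library gave Cxcl1 with Yap siRNA -0.26 to 0.98, Ccl2 with Yap siRNA -0.46 to 0.36 and Ccl7 with Wwtr1 siRNA -0.37 to 0.15 on the log2 scale. Cxcl12 in the double knockdown against Yap siRNA ran from -0.25 to 0.044. Between Yap and Wwtr1 siRNA, Cxcl10 ran from -0.30 to 1.03, Cxcl11 from -0.23 to 1.00, Cxcl16 from -0.13 to 0.25 and Cx3cl1 from -0.20 to 0.39. The interaction ran from -0.053 to 0.24 for Cxcl12, -2.40 to 0.17 for Ccl5 and -0.20 to 0.39 for Cx3cl1. With a pseudocount of 10 it was 0.79 for Cxcl11 and 0.37 for Ccl5, and with edgeR -0.0015 for Cx3cl1.

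Low counts limit Cxcl9, Cxcl11, Cxcl13 and Ccl5, whose negative siRNA libraries held 0 to 3 reads.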
